A study of Mus musculus with 36 samples.

Results

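Brain RNA of Ndufs4 knockout (KO) mice was compared with that of wild-type (WT) mice after both had received the complex I inhibitor CP2. Members were the samples whose titles carry CP2 and the letter F, which gave 5 KO and 5 WT samples, 10 of the 36 samples of the series. KO CP2 F denotes mice of the genotype ndufs4-ko gavaged with CP2 for 3 days, and WT CP2 F denotes WT mice treated in the same way. All animals were 37 to 45 days old per the labels. CP2 and gavage were shared by both groups, and genotype was the labelled difference between them. The number in the title also went with genotype, being mostly lower in KO than in WT. The tissue label is brain, and the design text names hippocampus and cortex. The Ndufs4 allele, the strain, the CP2 dose and the meaning of the letter were not given in the sources used here. The other groups used below were KO and WT under CP2 with the letter M and KO and WT given vehicle with the letter F, each with 5 samples. The labels do not say that samples came from separate animals, so p-values measure the spread between these samples.

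Complex I takes electrons from NADH into the respiratory chain. Ndufs4 encodes an accessory subunit of its NADH-oxidising part, the N-module, and loss of it in mice is used as a model of Leigh syndrome, a disease with neuronal loss and glial reaction in brainstem, cerebellum and olfactory bulb. CP2 is a small molecule that weakly inhibits complex I and has been studied in mouse models of Alzheimer's disease.

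Counts assigned to genes were 46984686 to 66325207 per KO sample and 51844061 to 61626655 per WT sample. Levels are given in CPM, the usual scaling of counts to the size of the library, on library sizes adjusted by the TMM method. Pairs of KO libraries correlated less closely (Pearson r of log2 CPM 0.958 to 0.966) than pairs of WT libraries (0.973 to 0.977). Reads outside annotated genes made up 7.54% ± 2.14 (SD, n = 5) in KO and 6.02% ± 0.714 (SD, n = 5) in WT (exact two-sided permutation p = 0.159, smallest possible 0.00794). Xist, transcribed from the inactive X chromosome, was at 538 to 744 CPM in KO and 550 to 798 CPM in WT. Ddx3y, a Y-linked gene, was at 0 in 9 libraries and at 0.214 CPM in WT L311. Samples are named below by the code in their title, and values are listed in the order L201, L216, L227, L233, L234 for KO and L228, L240, L257, L272, L311 for WT.

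2 of the 5 KO libraries stood out for transcripts of cerebellar neurons. Gabra6, a GABA-A receptor subunit of cerebellar granule cells, was at 52.2, 0.281, 0, 7.62 and 0.0148 CPM in KO and at most 0.0194 CPM in WT. Cbln3, a granule cell member of the cerebellin family, was at 178, 0.645, 0.296, 16.3 and 0.326 CPM in KO and 0.0803 to 0.803 CPM in WT. Pcp2, a Purkinje cell gene, was at 37.7, 0.165, 0.111, 27.6 and 0 CPM in KO and 0.0194 to 0.18 CPM in WT. L201 and L233 were high for these 3 genes, while L216, L227 and L234 were near the WT range for Cbln3 and Pcp2. For Gabra6 L216, at 0.281 CPM, was also above the WT maximum of 0.0194 CPM. Without L201 and L233 the log2 fold change of Gabra6 was 2.95. Car8, which acts on the IP3 receptor of Purkinje cells and was named after its values were seen, showed the same order, at 159, 15.8, 13.9, 63.5 and 18.6 CPM against 11.9 to 14.9 CPM in WT. Gabra6, Cbln3, Pcp2 and Car8 were called, and without L201 and L233 the adjusted p was 0.466, 0.942, 0.96 and 0.615. The 4 genes are therefore not listed among the results that follow. The same libraries had the highest shares of reads outside genes among KO samples, at 10.97% and 8.182%. Named genes that lost their call without these 2 libraries are given below with the adjusted p of that fit, or with the count or range for their group.

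**Figure D1:**
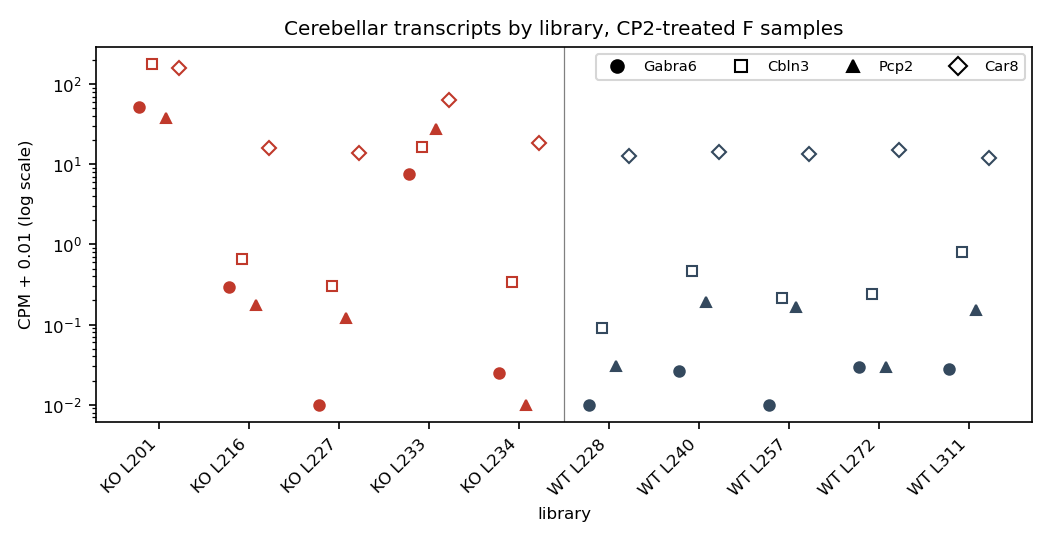
Level of 4 cerebellar transcripts (CPM plus 0.01, logarithmic axis) in each of the 10 libraries, with KO in red and WT in dark blue and one symbol per gene. KO L201 and KO L233 stand above the other 8 libraries for each of the 4 genes.

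Calls rest on edgeR's quasi-likelihood test, with a Benjamini-Hochberg adjusted p below 0.05 over 25601 genes. KO and WT differed in 511 genes (2.00% of those tested), of which 183 were higher in KO (0.715%) and 328 lower (1.28%). These shares are the background for each count of called list members under CP2 in F below. Most differences were small, the absolute log2 fold change of called genes having a median of 0.43 and reaching 1 in 58 of them. The KO and WT samples did not overlap for 309 called genes, against 774 genes without overlap among those tested (3.02%, with KO above in 1.25% and below in 1.77%). Leaving out L201 and L233 left 208 calls, 150 of them among the 511. Of the 510 genes with a value in that fit, which shares the other 8 libraries, 509 had the same sign, and the median ratio of their log2 fold changes to those with all libraries was 0.958 for genes called higher and 0.933 for genes called lower. Fitting the 10 samples on their own, without the spread estimated from the other groups, left 40 calls (12 higher, 28 lower). A set of 32 genes, 9 of them higher, was called in each of 18 alternative fits, which included the 10-sample fit, leaving out each library and leaving out L201 and L233. Because the tissue was measured in bulk, fewer cells of a type and less RNA per cell cannot be told apart.

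Ndufs4 itself fell in KO and was among the 32 genes. It was at 37.4, 36.4, 34.8, 37.1 and 31.3 CPM in KO and at 49.9, 48.3, 54.0, 62.8 and 45.9 CPM in WT. Each KO sample lay below each WT sample. The mean was 35.4 ± 2.48 CPM (SD, n = 5) in KO and 52.2 ± 6.61 CPM (SD, n = 5) in WT, a log2 fold change of -0.56 (SE 0.0849, adjusted p = 0.000492). The counts sum over the gene and the deleted part was not given in the sources used here, so they do not show how much intact transcript remained.

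Few other complex I genes were called. Of 8 N-module subunits Ndufs4 alone was called, and the list median was -0.02 on the log2 scale, against 0.018 over the genes tested. Ndufv2, an iron-sulfur subunit of this module, had 126 ± 0.997 CPM (SD, n = 5) in KO and 120 ± 7.98 CPM (SD, n = 5) in WT. Ndufs6, an accessory subunit that binds zinc, had a log2 fold change of -0.22 (SE 0.19), and Ndufa12, which joins the same region of the complex, -0.16 (SE 0.086). None of 8 Q-module subunits, which pass electrons to ubiquinone, and none of 21 nuclear subunits of the membrane arm was called. Among 17 assembly factors 1 was called, Timmdc1, which helps build the membrane arm, at 13.4 ± 1.99 CPM (SD, n = 5) in KO and 18.6 ± 2.36 CPM (SD, n = 5) in WT (log2 fold change -0.47, SE 0.103, adjusted p = 0.0113). The call was lost without L201 and L233 (adjusted p = 0.064) and without WT L257.

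None of the 13 mitochondrial DNA protein genes (median log2 fold change 0.05), none of 41 nuclear subunits of complexes II to V (median -0.02) and none of 78 mitochondrial ribosomal proteins (median -0.04) was called. Genes of mitochondrial upkeep outside these lists were named after their values were seen. Polg, the catalytic subunit of the mitochondrial DNA polymerase, fell from 54.7 ± 2.93 CPM (SD, n = 5) in WT to 43.2 ± 2.55 CPM (SD, n = 5) in KO (log2 fold change -0.34, adjusted p = 0.00745), and without L201 and L233 its adjusted p was 0.064. Lias, the lipoic acid synthase of mitochondria, rose from 23.8 ± 2.72 to 32.2 ± 4.62 CPM (SD, n = 5 each; log2 fold change 0.44, adjusted p = 0.00376).

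Energy and stress programmes often linked to respiratory chain defects showed few calls. None of 25 targets or members of the ATF4 stress response was called (median -0.09). Asns, the asparagine synthetase that ATF4 induces, had 79.2 ± 6.95 CPM (SD, n = 5) in KO and 81.7 ± 3.5 CPM (SD, n = 5) in WT. Psat1, a serine synthesis enzyme, had a log2 fold change of -0.03 (SE 0.0638). None of 23 genes of glycolysis, lactate and glucose transport was called (median -0.02), and none of 20 NRF2 antioxidant genes (median 0.03). Of 24 genes of the TCA cycle and pyruvate oxidation 1 was called, Pdp1, the phosphatase that activates pyruvate dehydrogenase, with a log2 fold change of -0.52 (adjusted p = 0.0359). Cpt1a, the carnitine transferase that admits fatty acids to mitochondria, was the 1 called of 20 fatty acid oxidation genes (log2 fold change -0.28, adjusted p = 0.0496). Pdp1 and Cpt1a lost their calls without L201 and L233 (adjusted p = 0.175 and 0.162), and leaving out any of 7 single libraries for Pdp1 and any of 8 for Cpt1a ended the call.

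Hdac5 and Hdac9, 2 of the 4 class IIa histone deacetylases, fell in KO and were among the 32 genes. Hdac5, which moves between nucleus and cytoplasm with neuronal activity, was at 151, 162, 152, 169 and 166 CPM in KO and at 212, 204, 220, 212 and 203 CPM in WT. The highest KO sample lay well below the lowest WT sample (log2 fold change -0.39, SE 0.0611, adjusted p = 0.000636). Hdac9, of the same class, fell from 48.8 ± 1.48 CPM (SD, n = 5) in WT to 36.5 ± 2.00 CPM (SD, n = 5) in KO (log2 fold change -0.42, adjusted p = 0.00678). Hdac4 fell by 0.36 on the log2 scale (adjusted p = 0.0243), a call lost without L201 and L233 (adjusted p = 0.132) and without L201, L227, WT L240 or WT L257 alone. The fourth class member, Hdac7, was not called (log2 fold change 0.22, SE 0.134). Hdac9, Hdac4, Hdac7, Mettl3 and Mettl14 were named after their values were seen. The RNA methyltransferase Mettl3, which writes N6-methyladenosine on mRNA, was at 7.21, 8.80, 8.07, 10.5 and 11.3 CPM in KO and at 14.4, 13.1, 16.6, 16.1 and 15.4 CPM in WT, without overlap. Its log2 fold change was -0.72 (SE 0.131, adjusted p = 0.00293), while its partner Mettl14 had 18.6 ± 2.21 CPM (SD, n = 5) in KO and 18.7 ± 1.72 CPM (SD, n = 5) in WT.

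Further genes among the 32 were chosen for naming after their values were seen. Setd7, a lysine methyltransferase, was at 174 ± 25.1 CPM (SD, n = 5) in KO and 253 ± 12.7 CPM (SD, n = 5) in WT. Kdm7a, a histone demethylase, was at 48.5 ± 7.76 against 74.3 ± 5.99 CPM (SD, n = 5 each), and Prdm2, of the PR-domain family, at 57.5 ± 5.30 against 78.4 ± 4.53 CPM (SD, n = 5 each). Lhx2, a LIM homeobox factor of cortex and hippocampus, had 50.6 ± 4.06 CPM in KO and 70.4 ± 3.70 CPM in WT (SD, n = 5 each). Ift172 of the cilium's transport machinery fell by 0.44 on the log2 scale and Abhd6, which hydrolyses the endocannabinoid 2-arachidonoylglycerol, fell by 0.46. Each of these 6 genes was lower in all 5 KO samples than in any WT sample, as were 1.77% of the genes tested. Because the 6 were picked for stable calls in these same samples, their lack of overlap is not a separate result.

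The lower genes with the smallest p-values also included a phagocytic bridge and a peptidase. Mfge8, a secreted protein that binds phosphatidylserine on dying cells and tags them for uptake, was at 85.9, 99.4, 104, 76.4 and 109 CPM in KO and at 174, 172, 147, 156 and 142 CPM in WT. The groups were apart by more than the spread within either, at 95.1 ± 13.6 against 158 ± 14.4 CPM (SD, n = 5 each; log2 fold change -0.73, SE 0.0903, adjusted p = 1.35e-05). Rnpep, aminopeptidase B, was at 21.4, 19.6, 19.0, 23.1 and 28.6 CPM in KO and at 38.0, 31.1, 35.5, 36.4 and 33.9 CPM in WT (log2 fold change -0.65, adjusted p = 0.000492). L234 was the KO sample nearest to WT for both genes. Pex6, an ATPase that recycles the peroxisomal import receptor, was at 44.5, 45.4, 44.9, 46.8 and 59.9 CPM in KO and 60.6 to 75.0 CPM in WT (log2 fold change -0.45, adjusted p = 0.000859). P4ha1, the catalytic subunit of collagen prolyl 4-hydroxylase, was at 22.1, 28.7, 22.9, 33.8 and 34.8 CPM in KO and 41.3 to 65.0 CPM in WT (log2 fold change -0.86, adjusted p = 0.00796). Dok3, an adaptor that dampens immune receptor signalling, had a larger ratio at a low level, with 1.44 to 1.92 CPM in KO and 3.34 to 5.34 CPM in WT (log2 fold change -1.27, adjusted p = 0.00325). Of these 5 genes Pex6 lost its call in the 10-sample fit, and the other 4 were called in each of the 18 fits.

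**Figure D2:**
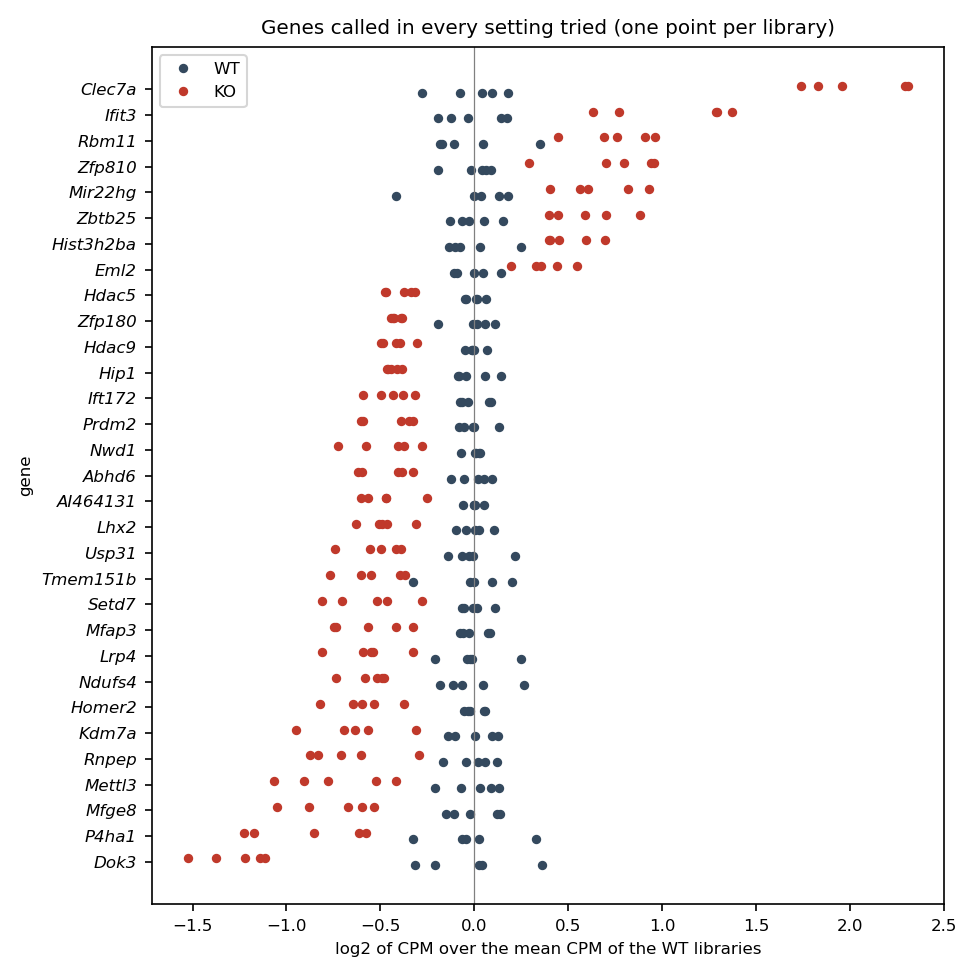
Levels of the 31 genes with a symbol that were called in each of the 18 alternative fits, as log2 of the CPM over the mean of the WT libraries, with one point per library (KO red, WT dark blue). Dok3 and P4ha1 lie lowest and Clec7a and Ifit3 highest in KO, and the set was picked for its stability in these samples.

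The 3 Homer genes, which encode postsynaptic scaffold proteins, did not move in one direction. Homer2, which tethers group I metabotropic glutamate receptors, was at 50.8, 69.3, 62.1, 59.3 and 57.5 CPM in KO and at 88.4, 93.3, 93.1, 86.3 and 87.9 CPM in WT (log2 fold change -0.59, SE 0.0938, adjusted p = 0.000859). Its relative Homer1, whose short form is an immediate early gene, was at 86.8, 134, 144, 116 and 107 CPM in KO and at 285.3, 206, 270, 223 and 171 CPM in WT (log2 fold change -0.97, SE 0.22, adjusted p = 0.0188). Neither gene overlapped between groups, which the naming rule required. Homer1 lost its call without L201 and L233 (adjusted p = 0.12), and without L201, WT L228 or WT L257 alone. Homer3, named after its values were seen, was called higher, at 56.9, 16.7, 14.2, 38.8 and 27.1 CPM in KO and 12.25 to 17.43 CPM in WT (log2 fold change 0.97, adjusted p = 0.0437). L201 and L233 were its highest KO samples, and without them its log2 fold change was 0.30 (adjusted p = 0.556). Homer1 was the 1 called gene of 21 immediate early genes, a list whose median was -0.72. Egr1, an activity-induced zinc finger factor, had 143 ± 56.8 CPM (SD, n = 5) in KO and 309 ± 110 CPM (SD, n = 5) in WT, with overlap (adjusted p = 0.192), and Arc, which regulates glutamate receptor uptake, 85.4 ± 44.5 against 218 ± 130 CPM (SD, n = 5 each). The list's medians in the other groups were -0.96 under CP2 in M, with 6 members called lower (background 5.24%), and 1.04 with vehicle in F, with 4 called higher (background 2.02%). With vehicle in F the spread was wide, with Fos at 142 ± 280.8 CPM (SD, n = 5) in KO and 21.05 ± 10.98 CPM (SD, n = 5) in WT. The difference in KO effect was called for 0 of the 21 genes between CP2 and vehicle in F. Between F and M under CP2 it was also called for 0, so a change of sign with treatment cannot be stated.

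Of 34 glutamate and GABA-A receptor subunits 2 were called, both lower (background 1.28%), and the list median was -0.03. Gabra2, a GABA-A receptor subunit, was at 46.0 ± 11.6 CPM (SD, n = 5) in KO and 63.0 ± 8.37 CPM (SD, n = 5) in WT. Grm2, the presynaptic metabotropic receptor 2, was at 29.3 to 42.8 CPM in KO and 43.5 to 60.1 CPM in WT. Both had adjusted p-values close to the threshold (0.0461 and 0.049), and each lost its call when any of 7 single libraries was left out. Without L201 and L233 the adjusted p was 0.226 for Grm2 and 0.0368 for Gabra2. Among 16 interneuron genes Cort, the neuropeptide cortistatin, was called, at 1.24, 3.79, 4.15, 1.33 and 1.08 CPM in KO and 3.05 to 8.44 CPM in WT (log2 fold change -1.40, adjusted p = 0.0233). L201, L233 and L234 were the low samples, and without L201 and L233 its adjusted p was 0.178. Pcsk1, the convertase that processes neuropeptide precursors, was at 19.7 to 37.4 CPM in KO and 38.3 to 62.6 CPM in WT (log2 fold change -0.74, adjusted p = 0.0322, and 0.219 without L201 and L233). Dlx6os1, a transcript antisense to the interneuron factor gene Dlx6, was at 8.09 to 13.6 CPM in KO and 14.2 to 26.5 CPM in WT (log2 fold change -0.84, adjusted p = 0.00376), and its reads are uncertain because the strand setting of the counting was not given.

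Several genes of the endoplasmic reticulum (ER) folding machinery fell in KO. Binding of the transcription factors ATF6 and XBP1 to the ER stress response element raises transcription of ER chaperones when unfolded proteins build up. The element, CCAAT and CCACG with any 9 bases between them, was searched on both strands of RefSeq promoter windows (250 bases before to 50 after the start, GRCm38.p6), because the list holds many of its textbook targets. It was found in 37 of 27025 genes with a window (0.137%), in 5 of 18 chaperone genes with one (27.8%) and in 4 of the 6 genes called lower that have a window. The matches of these 4 genes are shown with the element in capitals, on the strand of the gene. A match is a description of the letters and not a measured binding site.
Hspa5, chr2:34772005-34772063, plus strand: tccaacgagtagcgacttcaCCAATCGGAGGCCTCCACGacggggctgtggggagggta
Pdia6, chr12:17266471-17266529, plus strand: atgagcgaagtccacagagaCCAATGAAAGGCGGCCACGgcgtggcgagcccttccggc
Calr, chr8:84847055-84847113, minus strand: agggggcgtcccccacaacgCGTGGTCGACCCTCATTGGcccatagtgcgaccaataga
Creld2, chr15:88819500-88819558, plus strand: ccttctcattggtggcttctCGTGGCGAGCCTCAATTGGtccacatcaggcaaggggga
Hspa5 and Pdia6 carried the element in the sense orientation and Calr and Creld2 in the reverse orientation.

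Of 23 heat shock and ER chaperone genes 8 were called lower (background 1.28% of genes called lower) and none higher. The list median was -0.41 against 0.018 over the genes tested. Hspa5, the main ER chaperone of the Hsp70 family (BiP), was at 180, 168, 175, 179 and 231 CPM in KO and at 251, 244, 422, 245.9 and 258 CPM in WT (log2 fold change -0.61, SE 0.15, adjusted p = 0.0292). The groups did not overlap, and WT L257 stood far above the other WT samples. Pdia6, a disulfide isomerase, was at 62.4, 69.7, 59.5, 67.5 and 90.3 CPM in KO and at 104, 95.3, 129, 98.0 and 82.6 CPM in WT (log2 fold change -0.54, SE 0.107, adjusted p = 0.00605). KO L234 overlapped the WT range for Pdia6, as it did for Calr, the lectin chaperone calreticulin, at 206, 195, 222, 225 and 300 CPM in KO and 273 to 381 CPM in WT. Creld2, an ER-resident isomerase, was at 7.21 to 9.65 CPM in KO and 10.4 to 18.5 CPM in WT, without overlap. Sdf2l1, Manf and Hyou1, further ER stress genes, fell by 0.96, 0.52 and 0.31 on the log2 scale. Hsph1, a cytosolic Hsp110 chaperone, was the 1 called member outside the ER, at 147, 192, 195, 202 and 280 CPM in KO and 243 to 375 CPM in WT (log2 fold change -0.57, adjusted p = 0.016). The called members beyond the 4 that the naming rule takes from a list were named after their values were seen.

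Xbp1 itself, named after its values were seen, was at 52.4, 60.4, 61.9, 62.3 and 68.5 CPM in KO and at 80.7, 74.9, 125, 78.7 and 85.3 CPM in WT (log2 fold change -0.54, adjusted p = 0.0181). Its KO samples lay below the WT samples, with WT L257 the highest. Its call was lost without L201 and L233 (adjusted p = 0.109) and without L201 or WT L257 alone. Hsf1, the heat shock transcription factor, and Chordc1, an Hsp90 co-chaperone, were also named after their values were seen and fell by 0.33 and 0.74 on the log2 scale (adjusted p = 0.0243 and 0.0216). Both lost their calls without L227 or WT L257 alone, Hsf1 also without L216 or WT L240 and Chordc1 without L201. Dnajb9, an ER co-chaperone, was at 48.7 ± 4.52 CPM (SD, n = 5) in KO and 48.1 ± 2.95 CPM (SD, n = 5) in WT. The mitochondrial chaperone Hspa9 had a log2 fold change of 0.05.

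The chaperone count depended on single libraries although the direction of most genes did not. Without L201 and L233 none of the 23 was called, while the median was -0.38 and 20 were below 0. Without WT L257 the count was 1 and the median -0.24, without L201 the count was 1, and without L234 it was 11. It was 3 to 5 without L216, L227, L233 or WT L228. In the 10-sample fit none was called. Under CP2 in M 8 members were called lower (median -0.24, background 5.24% of genes called lower), and with vehicle in F 9 were called lower (median -0.29, background 2.94%). No member was called for the difference in KO effect between F and M.

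**Figure D3:**
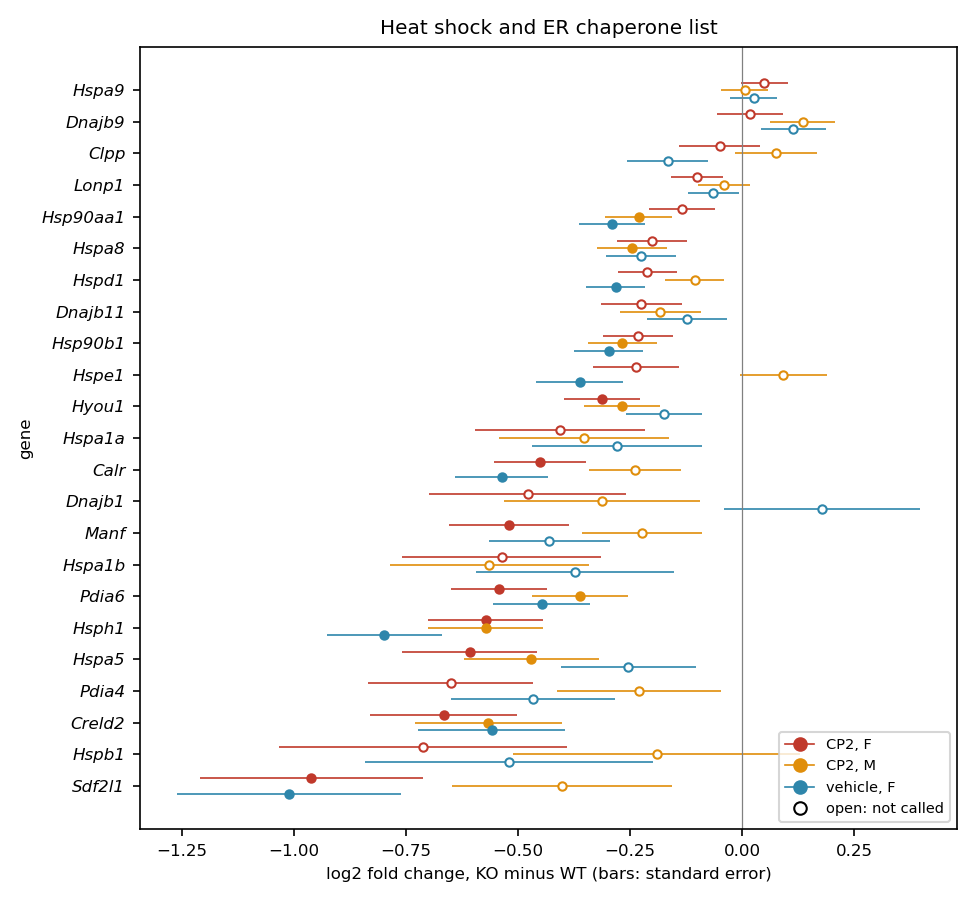
Log2 fold change of KO over WT, with its standard error as a bar, for the 23 heat shock and ER chaperone genes under CP2 in F (red), under CP2 in M (orange) and with vehicle in F (blue), with filled points for called genes. Of the 23 genes, 21 lie below 0 under CP2 in F, and Sdf2l1 and Creld2 are lowest among those called.

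Cold-inducible RNA-binding proteins were higher in KO. Cirbp was at 109, 103, 115, 80.9 and 62.7 CPM in KO and at 61.4, 49.3, 36.7, 45.4 and 53.0 CPM in WT (log2 fold change 0.94, SE 0.173, adjusted p = 0.00476). Its relative Rbm3, named after its values were seen, was at 127, 126, 119, 99.7 and 73.2 CPM in KO and at 63.1, 57.9, 36.1, 50.6 and 76.9 CPM in WT (log2 fold change 0.93, SE 0.165, adjusted p = 0.00325). KO L234 was the lowest KO sample for both, and it overlapped WT for Rbm3. Both are mRNA-binding proteins that rise in cooled cells. Both stayed called without L201 and L233 (adjusted p = 0.0218 and 0.021) and lost the call in the 10-sample fit. With vehicle in F the log2 fold changes were 0.96 and 1.13, and under CP2 in M 0.84 and 1.03, each called.

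Zfp810, Zbtb25, Rbm11 and Mir22hg rose in KO and were among the 32 genes. Zfp810, a zinc finger protein, was at 21.2, 17.8, 21.0, 18.9 and 13.4 CPM in KO and 9.55 to 11.6 CPM in WT (log2 fold change 0.76, adjusted p = 0.00106). Zbtb25, a zinc finger repressor, rose by 0.61 on the log2 scale (adjusted p = 0.000859), and Rbm11, a splicing regulator, by 0.76 (adjusted p = 0.00793). Mir22hg, the host transcript of the microRNA miR-22, was at 25.6 ± 3.72 CPM (SD, n = 5) in KO and 16.0 ± 2.41 CPM (SD, n = 5) in WT. These 4 genes were called in each of the 18 fits. Their lack of overlap between groups was a condition of the naming rule and not a separate result. Washc2 of the endosomal WASH complex, Dis3, a nuclease of the RNA exosome, and Eif3e, a translation initiation factor subunit, rose by 0.41, 0.48 and 0.37 on the log2 scale. They were called in 17 of the 18 fits, the exception being the 10-sample fit. Maoa, the monoamine oxidase A of the outer mitochondrial membrane and named after its values were seen, was at 45.3 to 51.5 CPM in KO and 32.9 to 41.1 CPM in WT (log2 fold change 0.34, adjusted p = 0.00904).

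The largest ratios among higher genes came at low levels, and some moved with the 2 libraries that held cerebellar transcripts. Hes3, a repressor of the Notch pathway, was at 6.53, 1.47, 0.481, 2.73 and 0.651 CPM in KO and 0.0201 to 0.426 CPM in WT (log2 fold change 3.63, adjusted p = 0.00389). L201 and L233 were the 2 highest KO samples, and without them its log2 fold change was 2.18 (adjusted p = 0.109). Lncppara, a long noncoding RNA, was at 15.3, 4.79, 6.68, 7.08 and 3.30 CPM in KO and 1.74 to 3.01 CPM in WT, with log2 fold changes of 1.53 with all libraries and 0.94 without L201 and L233 (adjusted p = 0.0827). Cep72, a centrosomal protein, was highest in L201 at 6.01 CPM, and its log2 fold change went from 0.96 to 0.56 without L201 and L233 (adjusted p = 0.223). Palb2, a partner of BRCA2 in DNA repair, was at 0.966 to 2.27 CPM in KO and 0.475 to 0.965 CPM in WT (log2 fold change 1.22, adjusted p = 0.0487, and 0.139 without the 2 libraries). Mrnip, a DNA repair factor, rose by 0.87 on the log2 scale (adjusted p = 0.00542). Of the 48 genes called with a log2 fold change of at least 1, 37 still reached 1 without the 2 libraries and 10 were called. Whether the tissue content of these libraries set the other values was not tested.

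Genes with the largest ratios among those that fell were also at low or moderate levels. Panct2, a noncoding transcript, was at 1.54, 1.52, 0.463, 2.17 and 1.41 CPM in KO and 2.83 to 5.58 CPM in WT, with log2 fold changes of -1.42 with all libraries and -1.74 without L201 and L233 (adjusted p = 0.0202). Panct2 lost its call with the title number as a covariate and in the 10-sample fit. Dnase1l2, a DNase of the DNase I family, was at 0.298 to 1.47 CPM in KO and 1.5 to 2.65 CPM in WT (log2 fold change -1.39, adjusted p = 0.0406), a call lost when any of 6 single libraries was left out. Cyp4f15, a cytochrome P450 that hydroxylates lipid mediators, was at 7.12 to 10.2 CPM in KO and 13.6 to 23.6 CPM in WT (log2 fold change -0.96, adjusted p = 0.00325). Cyp4f15 lost its call with the title number as a covariate. Zbtb40, Mkks, which is a chaperonin-like protein of Bardet-Biedl syndrome, and Cys1, a ciliary protein, fell by 0.88, 0.83 and 0.72 on the log2 scale (adjusted p = 0.0223, 0.00492 and 0.0106). Zbtb40 lost its call without L201, L227 or WT L257 alone and with the title number as a covariate. Zbtb40, Mkks and Cys1 lost their calls in the 10-sample fit. Cys1 lost its call without WT L257 and without L201 and L233 (adjusted p = 0.0555). Of the 10 genes called with a log2 fold change of -1 or lower, 10 still reached -1 without the 2 libraries and 5 were called.

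Some genes of activated microglia were higher in KO, while most markers of the cell type were not called. Microglia are the resident phagocytes of the brain, and a set of disease-associated genes marks their response to neurodegeneration. Clec7a, the beta-glucan receptor dectin-1, was at 1.87, 1.34, 1.26, 1.85 and 1.47 CPM in KO and at 0.402, 0.426, 0.310, 0.388 and 0.357 CPM in WT. The lowest KO sample was well above the highest WT sample (log2 fold change 2.04, SE 0.406, adjusted p = 0.00571), and the gene was called in each of the 18 fits. Cd180, a Toll-like receptor homologue, was at 3.55, 3.34, 4.04, 5.11 and 4.08 CPM in KO and 1.14 to 2.61 CPM in WT (log2 fold change 1.10, adjusted p = 0.00894, and 0.0467 without L201 and L233). Cd180 lost its call with the title number as a covariate and in the 10-sample fit. Ctss, the lysosomal protease cathepsin S, was at 72.3, 64.1, 67.5, 65.4 and 86.2 CPM in KO and 47.9 to 54.2 CPM in WT (log2 fold change 0.45, adjusted p = 0.0309). Its groups did not overlap, and its adjusted p was 0.0782 without L201 and L233.

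These 3 were the called members of 28 disease-associated microglia genes, whose median was 0.15 (background 0.715% of genes called higher). Trem2, the lipid receptor that drives this state, was at 15.9 ± 1.93 CPM (SD, n = 5) in KO and 12.1 ± 2.12 CPM (SD, n = 5) in WT (adjusted p = 0.179). Cst7, Itgax and Spp1, further markers, had log2 fold changes of 1.47, 1.08 and -0.08 and were not called. Of 18 homeostatic microglia genes 1 was called, the sialic acid receptor Cd33, at 13.5 ± 1.57 CPM (SD, n = 5) in KO and 9.22 ± 0.822 CPM (SD, n = 5) in WT (log2 fold change 0.55, adjusted p = 0.0228, and 0.0977 without L201 and L233). Tmem119 and P2ry12, which mark resting microglia, had log2 fold changes of -0.26 and 0.32, and the summed level of the homeostatic list was 480.8 to 641.4 CPM in KO and 488.7 to 553.0 CPM in WT. Rac2, a GTPase of blood and immune cells, rose by 0.85 on the log2 scale (adjusted p = 0.015), a call lost without L227 or WT L257 alone, and Mpeg1, the macrophage pore-forming protein and named after its values were seen, by 0.49 (adjusted p = 0.00894). Rac2 and Mpeg1 lost their calls with the title number as a covariate and in the 10-sample fit.

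Under CP2 in M 20 of the 28 disease-associated genes were called higher, against a background of 4.75% of genes called higher there. The difference in KO effect between F and M was called for none of the 28, so F and M cannot be said to differ in this list, although 26 of the 28 had a less positive KO effect in F. With vehicle in F none was called. The difference in KO effect between CP2 and vehicle in F was called for 0 of the 28, so a dependence on CP2 cannot be stated either. Clec7a had log2 fold changes of 2.04 under CP2 in F, 2.30 under CP2 in M (adjusted p = 0.000247) and 0.72 with vehicle in F (adjusted p = 0.303).

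**Figure D4:**
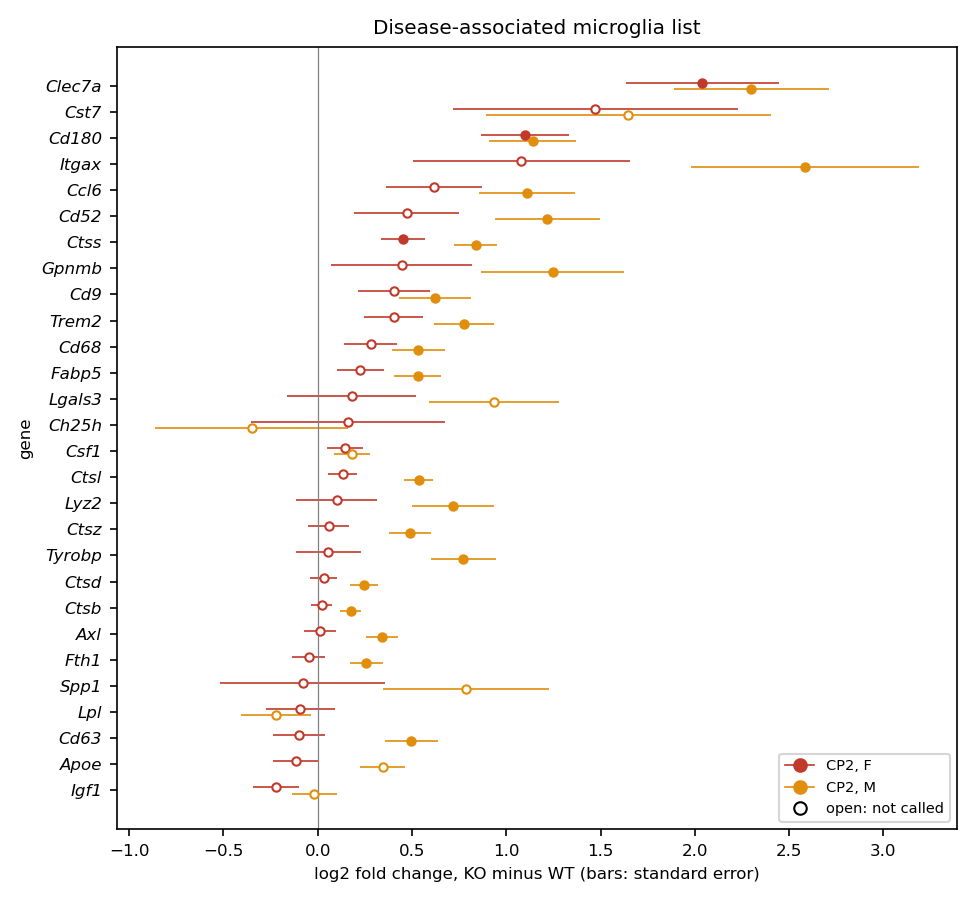
Log2 fold change of KO over WT, with its standard error as a bar, for 28 disease-associated microglia genes under CP2 in F (red) and in M (orange), with filled points for called genes. In F 3 genes are called and in M 20, and Clec7a is highest in F.

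Interferon-stimulated genes showed a similar picture, with 3 of 50 called higher (background 0.715%) and a list median of 0.17. Ifit3, an antiviral protein of the IFIT family, was at 18, 11.3, 17.9, 12.5 and 19.0 CPM in KO and at 7.15, 8.10, 8.26, 6.72 and 6.40 CPM in WT. The groups did not overlap, a condition of the naming rule for the largest changes (log2 fold change 1.10, SE 0.238, adjusted p = 0.0123). Ifit3 was called in each of the 18 fits. Ifit2, its neighbour in the family, was at 14.4 to 17.7 CPM in KO and 10.9 to 13.3 CPM in WT (log2 fold change 0.42, adjusted p = 0.0409). Lgals3bp, a secreted glycoprotein, was at 20 to 33.4 CPM in KO and 16.9 to 24.1 CPM in WT (log2 fold change 0.45, adjusted p = 0.0279). Both lost their calls without L201 and L233 (adjusted p = 0.113 and 0.187). Isg15, a hallmark interferon target, had a log2 fold change of -0.33 and was not called.

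The interferon-stimulated response element, searched as GAAA, any 2 bases and GAAA on both strands of the same windows, was in 3.99% of genes with a window, in 21 of 37 interferon-stimulated genes and, of the 3 called, in Ifit3. The 2 matches of Ifit3, which overlap in their flanks, are shown with the element in capitals.
Ifit3, chr19:34583353-34583402, plus strand: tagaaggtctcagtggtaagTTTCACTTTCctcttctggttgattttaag
Ifit3, chr19:34583387-34583436, plus strand: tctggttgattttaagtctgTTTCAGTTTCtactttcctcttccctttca
Both lie in the reverse orientation. Ifit3b, a near-identical copy with the same letters at its own matches, had a log2 fold change of 0.80 and was not called, and reads of the pair may have been split or dropped by the counting.

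Among 19 cytokine and chemokine genes 1 was called higher (background 0.715%) and 1 lower (background 1.28%). Ccl12, a monocyte-attracting chemokine, was at 1.43, 0.760, 1.33, 1.07 and 1.55 CPM in KO and at 0.141, 0.295, 0.345, 0.155 and 0.232 CPM in WT, without overlap (log2 fold change 2.38, SE 0.529, adjusted p = 0.0122). Cx3cl1, the neuronal chemokine fractalkine that signals to microglia, was at 383 to 673 CPM in KO and 557 to 884 CPM in WT (log2 fold change -0.43, adjusted p = 0.0441). Leaving out any of 8 single libraries ended the call of Cx3cl1, as did leaving out L201 and L233 (adjusted p = 0.224), and leaving out none of the 10 ended that of Ccl12. Ccl12 lost its call with the title number as a covariate. None of 19 complement genes and none of 21 antigen presentation genes was called, with medians of 0.04 and 0.11.

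Few markers of the other cell types were called. None of 24 astrocyte reactivity genes was called (median 0.23), and Gfap, the intermediate filament of reactive astrocytes, was at 500, 409, 290, 597 and 1605 CPM in KO and 242 to 477 CPM in WT. L234 stood alone at the top (adjusted p = 0.292). The summed level of 16 astrocyte identity genes was 5490 to 6313 CPM in KO and 6389 to 6678 CPM in WT, without overlap, though no member was called. The list median was -0.08, with 6 of the 16 above 0. The sums of every other list counted overlapped between groups. Of 24 myelin and oligodendrocyte genes 2 were called higher (background 0.715%). They were Opalin, a transmembrane protein of myelin, at 50.1 to 73.9 CPM in KO and 31.0 to 49.3 CPM in WT, and Aspa, which cleaves N-acetylaspartate, at 27.9 to 39.5 against 18.9 to 28.8 CPM. Their adjusted p-values were 0.0275 and 0.0399, and 0.0923 and 0.173 without L201 and L233. The major myelin gene Mbp had a log2 fold change of 0.18 and was not called. Matn4, a matrilin of oligodendrocyte precursors, was the 1 called of 12 in that list (log2 fold change -0.54, adjusted p = 0.0181, and 0.158 without the 2 libraries). No member was called among 24 endothelium and pericyte genes, 14 fibroblast genes, 9 border macrophage genes, 15 choroid plexus genes, 15 hippocampal CA genes or 16 cortical layer genes. The medians of these lists were, in that order, 0.01, -0.03, -0.43, -0.60, 0.13 and -0.16. In the border macrophage and choroid plexus lists 0 members were above 0. The choroid plexus sum was 4987 CPM in KO L201 and 1024 to 1253 CPM in the other KO samples, against 1593 to 4921 CPM in WT. Whether tissue content differed between the groups was not tested.

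The next 7 genes, 6 of them called lower, were chosen after their values were seen, and no list of their pathway was counted. Spry4, a sprouty inhibitor of growth factor signalling through the ERK kinases, was at 6.55, 15.2, 8.76, 8.50 and 12.1 CPM in KO and 14.2 to 23 CPM in WT (log2 fold change -0.83, adjusted p = 0.0352). Spred1, Spred2 and Spred3, inhibitors of the same pathway, fell by 0.39, 0.44 and 0.39 on the log2 scale, each without overlap. Etv5, an ETS factor induced by ERK, fell by 0.57 (adjusted p = 0.0235) and Ccnd1, cyclin D1, by 0.51 (adjusted p = 0.0196). Dusp6, the ERK phosphatase, had a log2 fold change of -0.51 and was not called (adjusted p = 0.4). Without L201 and L233 the 6 called genes lost their calls (adjusted p = 0.0731 for Spred3 to 0.223 for Spry4), and each also lost its call without L201 or WT L257 alone.

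Further lists held 1 or 2 calls, against a background of 0.715% of genes called higher and 1.28% called lower. P4ha1 and Vegfa, the endothelial growth factor, were the called members of 17 hypoxia-inducible factor targets, and Vegfa fell by 0.34 on the log2 scale (adjusted p = 0.0394), with WT L311 at 47.4 CPM, just below the KO range of 47.5 to 52.0 CPM. The call of Vegfa was lost without L201 and L233 (adjusted p = 0.123) and when any of 9 single libraries was left out, WT L311 being the exception. Lss, the lanosterol synthase, was the 1 called of 24 cholesterol synthesis genes, at 45.2 to 59.6 CPM in KO and 35.1 to 44.5 CPM in WT (log2 fold change 0.38, adjusted p = 0.0178), a call lost without L216 or WT L257 alone. Optn, the mitophagy receptor optineurin, was the 1 called of 19 mitochondrial dynamics genes, at 22.6 to 26.1 CPM in KO and 15.8 to 19.7 CPM in WT (log2 fold change 0.41, adjusted p = 0.0101). Its call was lost without L201 and L233 (adjusted p = 0.0511) and without WT L257 alone. Hist3h2ba rose by 0.51 on the log2 scale and was the 1 called of 34 histone genes, although histone counts depend on how reads with several matches were treated. Pdzd2, a PDZ-domain protein, was the 1 called of 14 dentate gyrus genes (log2 fold change -0.44, adjusted p = 0.0387). Its call was lost without L201 and L233 (adjusted p = 0.198) and when any of 6 single libraries was left out. None of 17 circadian clock genes and none of 17 Wnt ligands was called.

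The 511 calls were then set beside the same contrast in other groups, which share no sample with it. Under CP2 in M 89.6% of the 511 had the same sign, against 56.8% of the genes tested. There 2558 genes were called (9.99%), of which 202 were also called in F, in the same direction for 202 of 202. These were 39.5% of the calls in F and 7.90% of those in M. With vehicle in F 96.1% had the same sign, against 67.2% of the genes tested, and 210 genes were called in both, in the same direction for 210 of 210. These were 41.1% of the calls under CP2 in F and 16.5% of the 1270 calls with vehicle (4.96%).

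**Figure D5:**
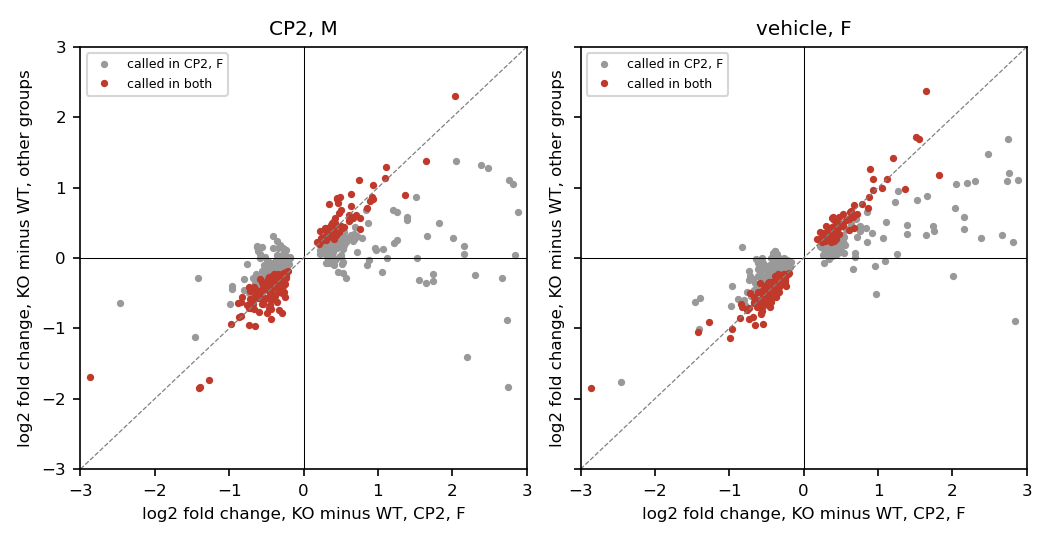
Log2 fold change of KO over WT for the 511 genes called under CP2 in F (horizontal) against that under CP2 in M (left) and with vehicle in F (right), with genes called in both groups in red. The red points, 202 and 210 genes, lie in the same-sign quadrants, and 14 genes of each panel lie beyond the axis limit of 3.

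The KO effect itself was compared between treatments and letters. The difference between CP2 and vehicle in F gave 0 calls by edgeR, where 1478 genes had an unadjusted p below 0.05, and 4 by DESeq2. The difference between F and M under CP2 was called for 210 genes (0.820%), with 153 more positive in F (0.598%) and 57 more negative (0.223%). Without L201 and L233 edgeR gave 0 calls, where 2910 genes had an unadjusted p below 0.05. Leaving out single libraries gave 16 to 580 calls. The share of reads outside genes moved with the M groups, at 5.180% to 9.065% in KO CP2 M and 9.048% to 13.220% in WT CP2 M, and with that share as a covariate 1 gene was called.

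Cytosolic ribosomal protein genes were prominent in this difference. Of 89 tested none was called in F (median 0.03) and 80 were called higher in M (median 0.45, background 4.75%). For the difference 20 were called, each more negative in F (background 0.223%). With size factors of DESeq2 the counts were 0, 80 and 18. None of the 20 kept its call for the difference without L201 and L233. The same held once reads outside genes were entered as a covariate. With the title number as a covariate at most 1 could have kept it, because 1 gene was called in all. Without WT CP2 M L262 only 3 genes of any kind were called more negative in F. Rps12, a small subunit protein named after its values were seen, was at 199 ± 19.3 CPM in KO CP2 F and 196 ± 14.3 CPM in WT CP2 F, against 214 ± 28.2 CPM in KO CP2 M and 134 ± 13.8 CPM in WT CP2 M (SD, n = 5 each; difference of log2 fold changes -0.66, SE 0.12, adjusted p = 0.0131). The WT CP2 M samples were the low ones.

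The KO effect on Sfrp1, a secreted Wnt inhibitor, and on Ogfod3, a dioxygenase, differed between F and M by -0.83 and -0.89 on the log2 scale (adjusted p = 0.0455 and 0.0268), and for both the KO effect was called in M and not in F.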

How the data were processed

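PolyA-selected RNA of mouse brain was sequenced with Illumina TruSeq chemistry, per the labels' protocols. The authors deposited raw counts per Ensembl gene, and the submitters' processing notes name STAR, HTSeq and GRCm39, with no versions. The table has 56980 genes after dropping its 5 summary rows. A GENCODE M21 table gave symbols for 52073 of them (91.4%), holding 97.2% of the counts. Strandedness was not given in the sources used here. Ndufs4 KO and WT under CP2 in F were contrasted in edgeR 4.0.16 (R 4.3.3), with TMM, filterByExpr, robust glmQLFit and a coefficient for each of the 8 groups over 36 samples. The standard error is the log2 fold change divided by the root of the F statistic. Alternatives were DESeq2 1.42.0, its size factors, no filter, 10 samples alone, 3 covariates and leaving out libraries.

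On data simulated for this contrast, 84.5% of 200 genes changed 2-fold were called, and 9 unchanged genes, over 24796 genes tested. The simulated libraries were independent, and the changed genes had a mean of at least 1 CPM. These figures therefore do not cover smaller changes or libraries that differ in tissue content. Members, gene lists and tests were chosen with earlier results of these data known. Genes were named by rule: Ndufs4, Xist and Ddx3y, the 12 largest changes and 6 smallest adjusted p each way among called genes without overlap and with a mean of at least 1 CPM, up to 4 called members each way per list, and up to 3 per difference. Members whose known role defines a list could be named as not called. Other genes were named after their values were seen, as the text says where they appear. Promoters are RefSeq sequences of GRCm38.p6. Figures were drawn with matplotlib 3.10.9. A few genes that the rule takes are not reported here.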

Additional observations from a re-analysis of the deposited data

Results flagged for a closer look

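Of 162 sets of 5 values examined (named genes, 4 tissue lists and the share of reads outside genes, in KO and in WT), 15 had 1 library apart from the other 4 by Dixon's test (critical value 0.71), a result that chance gives in about 1 in 20 sets. KO L201 stood apart for Gabra6 (52.24 CPM), Cbln3 (178.2 CPM), Grm2 (29.26 CPM, low), the summed cerebellar and olfactory bulb list (867.9 CPM) and the choroid plexus list (4987 CPM).

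KO L234 stood apart for Pex6 (59.89 CPM), Hspa5 (231.2 CPM), Calr (300.1 CPM) and Manf (39.18 CPM), each the highest of the KO samples and nearest to WT. WT L257 stood apart for Hspa5 (422.1 CPM) and Xbp1 (125.3 CPM). The remaining cases were Dlx6os1 in WT L228 (26.51 CPM), Vegfa in WT L311 (47.41 CPM, low), the haemoglobin list in WT L311 (998.6 CPM) and the striatal list in KO L227 (2143 CPM).

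A test of the difference in KO effect between F and M under CP2 singled out ENSMUSG00000121444 (2.59 on the log2 scale, F minus M), Gm45718 (2.58), Gm37899 (2.29), Ogfod3 (-0.89) and Sfrp1 (-0.83). The first 3 are unnamed gene models at a few CPM, with ENSMUSG00000121444 at 1.48 ± 0.755 CPM in KO CP2 F and 0.914 ± 0.261 CPM in WT CP2 F, against 0.631 ± 0.350 CPM in KO CP2 M and 2.34 ± 0.461 CPM in WT CP2 M (SD, n = 5 each).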

How the results depend on the processing

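Of the genes tested, 2.00% were called for KO against WT (511). This became 4.51% with DESeq2 (886 calls, 431 higher and 455 lower), 1.07% with the share of reads outside genes entered as a covariate (273), 1.14% with the title number as a covariate, 0.2% with the 10 samples alone (40) and 0.816% without L201 and L233 (208), an alternative chosen after seeing the data. Leaving out single libraries gave 0.548% (140, without WT L257) to 3.66% (935, without KO L234), with 190 calls without KO L201, 337 without KO L227, 315 without WT L228 and 314 without WT L272. The share was 1.83% with DESeq2's size factors, 0.811% with no filter, where 42414 genes were tested (344 calls), and 1.95% with the hippocampal CA level as a covariate.

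For F against M under CP2, 0.82% (210) became 2.69% with DESeq2 (648), 0.00391% (1) with either the share outside genes or the title number as a covariate and 0% without L201 and L233. Leaving out single libraries gave 0.0627% (16, without WT CP2 M L262) to 2.27% (580, without KO CP2 F L234). For CP2 against vehicle in F, 0% became 0.0156% with DESeq2 (4) and was 0 in each edgeR fit run.

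Among named genes Pcp2 alone changed sign, to -0.20 without L201 and L233. Besides those given above, further named genes lost their calls with the title number as a covariate. Among them were Hes3, Lncppara, Cep72, Palb2, Polg, Lss, Chordc1, Opalin, Aspa, Ctss and Gabra2. The cause of these shifts was not tested. No paired analysis was possible because no title number is shared between groups.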
